A study of Mus musculus with 9 samples.

Results

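Of the 55335 genes in the expression table, 33 were taken by name because they encode the factors that control cholesterol and fatty acid synthesis or the enzymes that carry it out. They fall into 5 SREBP factors and regulators, 7 enzymes of the mevalonate branch, 12 sterol enzymes and carriers, and 9 genes of fatty acid synthesis and desaturation. All 33 were found, each as a single entry. Levels are given in FPKM, a fragment count adjusted for transcript length and library size.

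Cells make cholesterol from acetyl-CoA through mevalonate, squalene and lanosterol, and make fatty acids from the same acetyl-CoA, which ATP citrate lyase supplies in the cytosol. The genes of both routes are switched on by the SREBP transcription factors, which are held in the endoplasmic reticulum with the sterol sensor SCAP by INSIG proteins when sterols are plentiful and are cut free in the Golgi when sterols are scarce. SREBP2 acts mainly on sterol genes and SREBP1 mainly on fatty acid genes, and in macrophages both routes shift with inflammatory signals and with cholesterol load.

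The cells were mouse peritoneal macrophages, the phagocytes of the abdominal cavity, and every group received lipopolysaccharide (LPS), a bacterial cell wall component, at 1 µg/mL for 4 h after 1 h in RPMI 1640 medium. The LPS group received nothing else, the LPS+EtOH group also received 5% ethanol, and the LPS+CPZ group was given CPZ at 100 µM, an abbreviation that the labels do not resolve. Each group had 3 libraries, and RNA of 3 samples was pooled for each library. Whether the pools came from separate animals is not stated, so the p-values measure the spread between pools, and strain, sex and age are not given in the sources used here. Cells without LPS, cells given ethanol or CPZ alone and a vehicle control for CPZ were not analysed here.

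The libraries reached 1 FPKM in 11096 to 11266 genes with LPS alone, 8024 to 8366 with EtOH added and 10135 to 10625 with CPZ added. The macrophage markers Adgre1 and Csf1r averaged 141 and 24.9 FPKM with LPS alone, 89.0 and 19.4 with EtOH added and 88.5 and 36.9 with CPZ added, and the summed level of the 7 markers was 1582 to 2039, 2661 to 2988 and 1041 to 1211. The markers did not move together: in the same order Cd68 averaged 55.5, 363 and 405 FPKM, Cd14 907, 2177 and 406, and Lyz2 733, 226 and 217. Mertk, which marks resident peritoneal macrophages, stayed under 1 FPKM in all 9 libraries. Markers of other cells moved with the groups. The 8 neutrophil markers, among them Ly6g and S100a8, summed to 3703 to 5274, 43287 to 47867 and 6276 to 6749 FPKM in the same order, the 5 B cell markers to 398 to 607, 32.0 to 50.5 and 126 to 167, and the 7 T and NK cell markers to 31.1 to 37.8, 0.326 to 0.785 and 6.52 to 13.3. A list of 6 red blood cell genes with Hba-a1 and Hba-a2 summed to 34791 to 107458 FPKM with LPS alone, 608 to 747 with EtOH added and 153 to 349 with CPZ added, and the 4 globin genes took 11.5 to 29.4% of all FPKM in LPS and at most 0.221% elsewhere. The 5 mast cell markers summed to 49.3 to 90.2, 22.6 to 58.7 and 13.1 to 34.7 FPKM, and the sums for adipocyte markers stayed at or under 0.125 FPKM. Those for mesothelial and fibroblast markers were low but higher in the treated groups, at 0.423 to 0.793, 2.08 to 2.44 and 2.17 to 2.63. In such bulk libraries, fewer cells of a type and less RNA per cell cannot be told apart, and the part of these markers in the results below was not tested.

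Most of the tested genes of fatty acid and sterol synthesis were lower in LPS+EtOH than with LPS alone. So were 64.6% of all tested genes, and 48.4% were lower in LPS+CPZ. In both treated groups the 6 tested genes of fatty acid synthesis were below their level with LPS alone, with Scd1 and Fasn lowest, while Mvd of the mevalonate branch and Fdft1, the first sterol enzyme, stood above it, both with an abundant neighbouring gene that is described with them. Insig1, Pmvk, Msmo1 and Sc5d were higher than with LPS alone in LPS+CPZ. After the median-ratio scaling described below, each of them was also higher than with LPS alone in LPS+EtOH. Of the 33 genes, 26 reached 1 FPKM in at least 3 libraries and were tested with limma on log2(FPKM + 1), with Benjamini-Hochberg adjustment over all 11721 genes tested and a threshold of 0.05. Fold changes on that scale understate the change of weakly expressed genes. The other 7, Mvk, Lss, Tm7sf2, Dhcr7, Elovl6, Fads1 and Fads2, were below that level and are given as values. Of the 26, 8 reached 1 FPKM in some groups and not in others, so their passing depended on the groups where they were high.

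**Figure D1:**
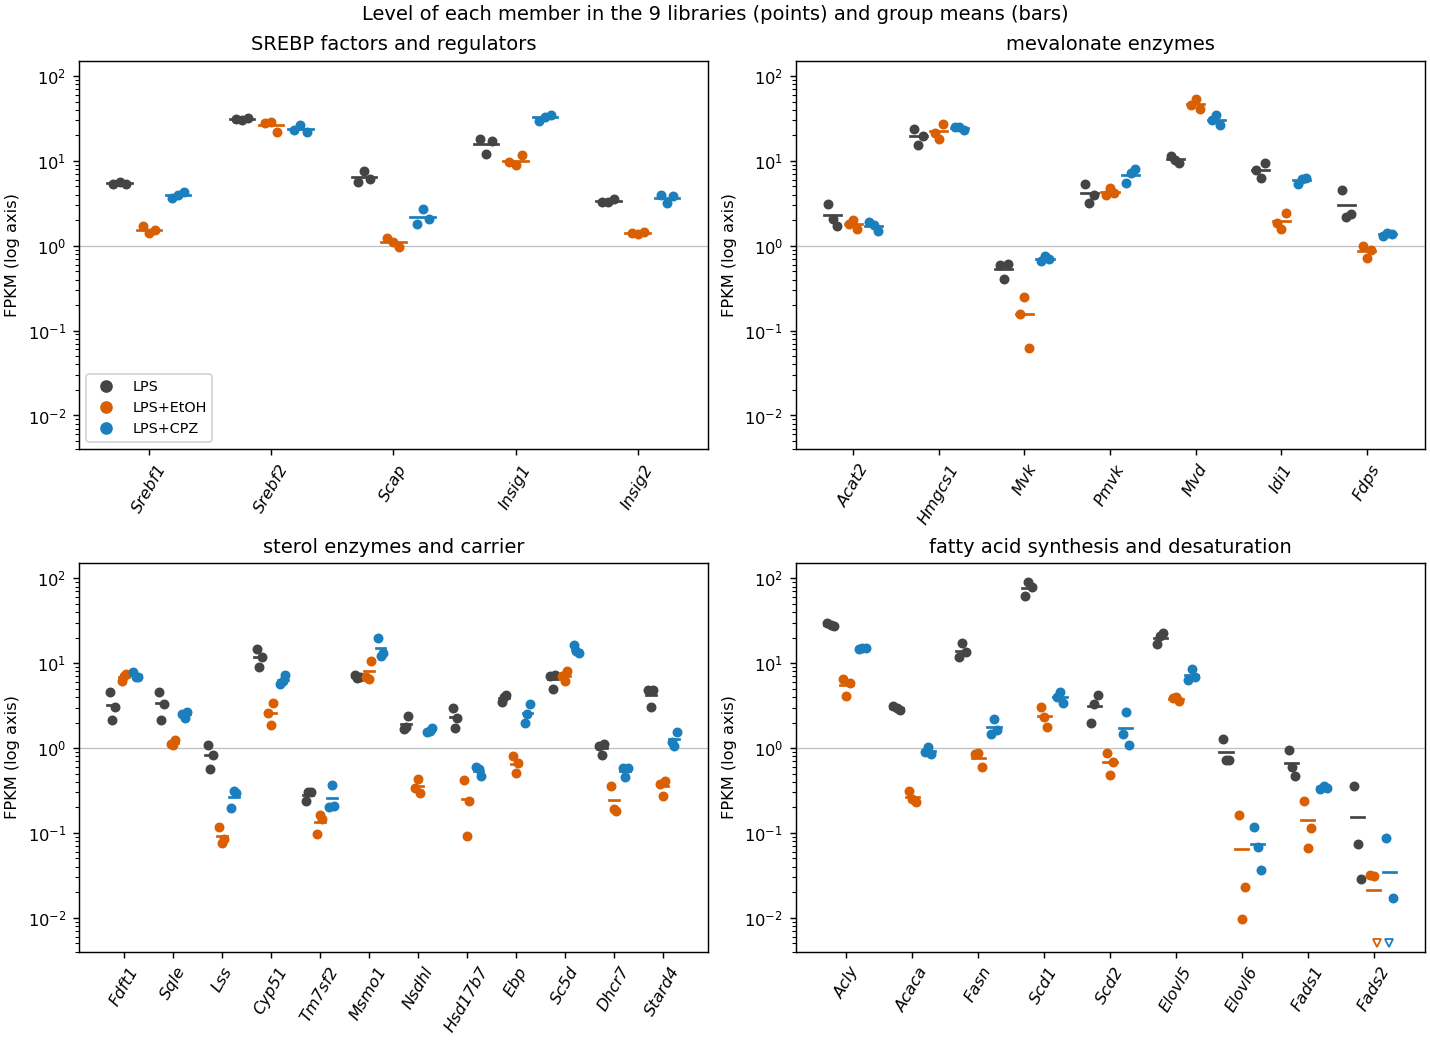
FPKM of each of the 33 genes on a log axis, by role, with 1 point per library, the group mean as a bar, a grey line at 1 FPKM and open triangles for values of 0. The means of Scd1 and Fasn are 7.98 to 32.9 times lower in the treated groups than in LPS (dark grey), while Mvd is the gene whose treated libraries stand farthest above those of LPS.

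Against LPS, LPS+EtOH had 2 of the 26 tested genes higher, 18 lower and 6 not past the threshold, with a median log2 change of -1.19. Among all tested genes 19.0% were higher and 64.6% lower, with a median of -0.82, so that a share of 69.2% lower is near the background and is not a result about these genes. LPS+CPZ had 6 higher, 14 lower and 6 not past the threshold against LPS, with a median of -0.38, where 20.7% of all tested genes were higher and 48.4% lower, with a median of -0.33. Both comparisons use the same LPS libraries. Between the treated groups, 19 genes were higher in LPS+CPZ than in LPS+EtOH, 1 was lower and 6 did not pass, with a median of 0.69, beside 61.4% higher and 15.2% lower among all tested genes and a median of 0.55. By these counts the list lies near the background in the comparisons with LPS, and the results below are those of single genes and branches.

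Because most of the table moved one way, the direction of a small change depends on how libraries are scaled. FPKM is relative to all fragments of a library. Scaling by the median ratio over the 16309 genes above 0 in all 9 libraries moved the median change of all tested genes by 0.75 in LPS+EtOH against LPS, by 0.25 in LPS+CPZ against LPS and by -0.47 between the treated groups. On that scale the 26 genes counted 9 higher and 14 lower in LPS+EtOH against LPS (37.8% and 42.1% of all tested genes), 8 higher and 9 lower in LPS+CPZ against LPS (27.6% and 34.1%), and 9 higher and 5 lower in LPS+CPZ against LPS+EtOH (35.6% and 31.5%). Values below are on the deposited scale, and the scaled value stands beside each call that it changes.

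**Figure D2:**
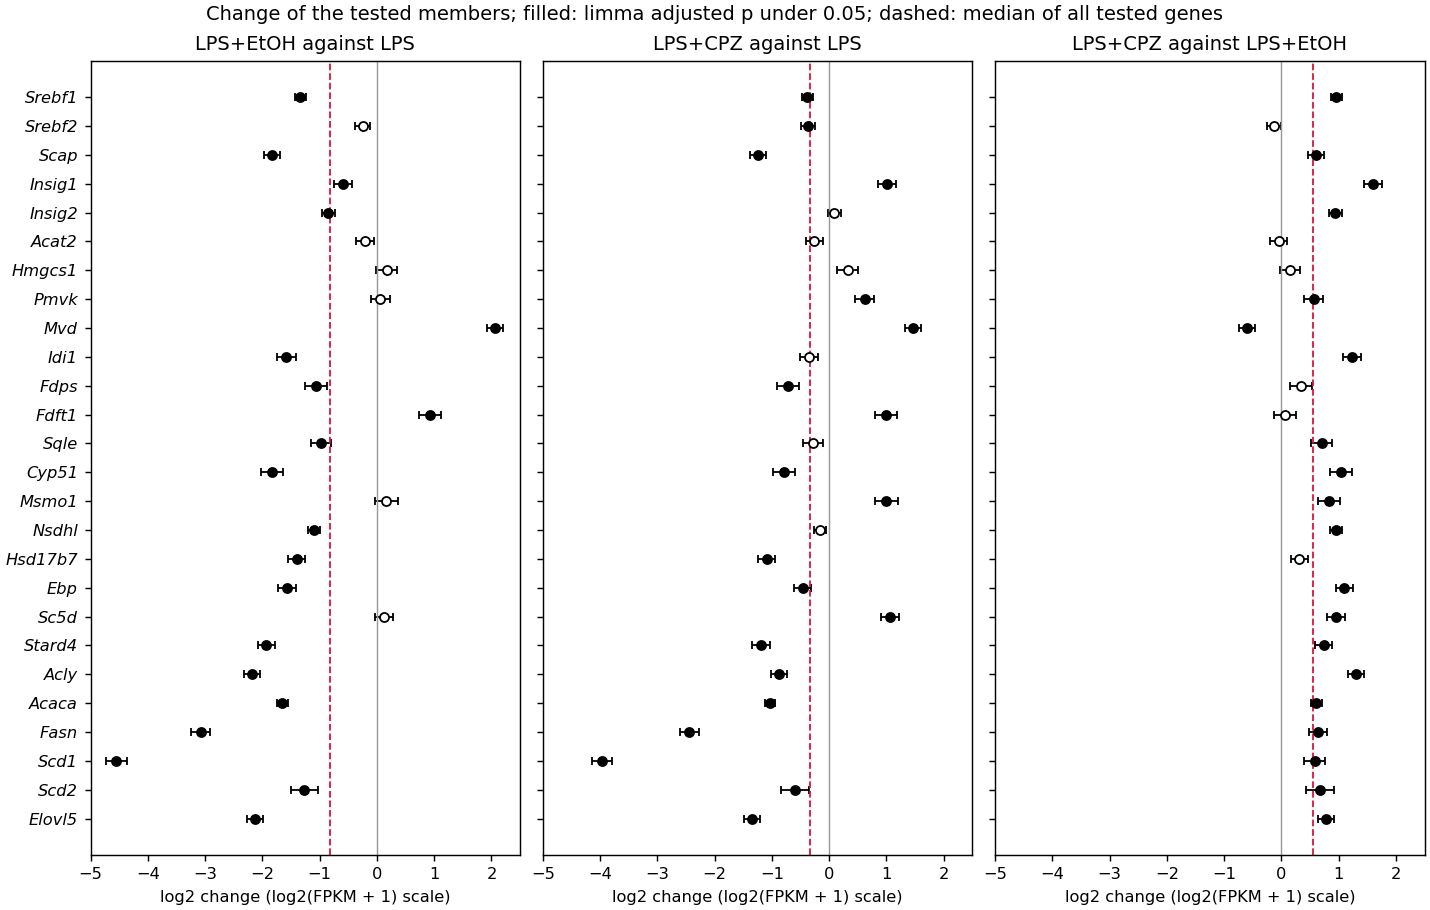
Log2 change of the 26 tested genes on the log2(FPKM + 1) scale with the standard error of the limma fit, filled where the adjusted p was under 0.05, with a dashed line at the median of all 11721 tested genes. Mvd lies at 2.06 and Scd1 at -4.55 in LPS+EtOH against LPS, on opposite sides of the dashed line at -0.82.

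Of the 5 SREBP factors and regulators, 4 were lower in LPS+EtOH than in LPS, while in LPS+CPZ 3 were lower and Insig1 was higher. Of all tested genes 64.6% and 48.4% were lower in these comparisons, so these counts are near the background. Srebf1, which encodes the form tied to fatty acid synthesis, measured 5.38, 5.6 and 5.41 FPKM with LPS alone, 1.71, 1.42 and 1.52 with EtOH added and 3.64, 3.97 and 4.27 with CPZ added. The 3 groups did not overlap, with LPS+CPZ between the others. It was lower in LPS+EtOH than in LPS by a log2 change of -1.34 (SE 0.10, limma adjusted p = 6.22e-07) and lower in LPS+CPZ by -0.38 (limma adjusted p = 0.00734). The second call was lost after median-ratio scaling, at -0.11 (limma adjusted p = 0.307). Srebf1 shares 109 exon bases with Rai1 on the opposite strand, which averaged 2.12, 0.28 and 0.896 FPKM in LPS, LPS+EtOH and LPS+CPZ. The part of Rai1 in the level of Srebf1 was not tested.

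Srebf2, the factor for sterol genes, was the most abundant of the 5 regulators in LPS and LPS+EtOH, with 31.1, 30.2 and 31.8 FPKM with LPS alone, 28.1, 28.7 and 21.8 with EtOH added and 23.1, 26.3 and 22.1 with CPZ added. LPS+EtOH did not pass the threshold against LPS, at -0.25 (limma adjusted p = 0.0981), and was higher after scaling, at 0.81 (0.000257). With the globin genes left out and the rest rescaled to an equal total per library, it was lower, at -0.67 (0.00127), so its direction there depends on the scaling. LPS+CPZ was lower than LPS by -0.37 (limma adjusted p = 0.0248), a call that was lost after scaling, at -0.06, and on leaving out LPS replicate 1 or 3 or LPS+CPZ replicate 1 or 3, when the adjusted p was 0.0511, 0.0663, 0.0642 and 0.0837.

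Scap, the sterol sensor that carries SREBPs out of the endoplasmic reticulum, measured 5.71, 7.68 and 6.19 FPKM with LPS alone, 1.23, 1.1 and 0.964 with EtOH added and 1.82, 2.68 and 2.07 with CPZ added. Every treated library lay below every LPS library. The log2 change was -1.83 for LPS+EtOH (limma adjusted p = 5.44e-07) and -1.24 for LPS+CPZ (2.48e-05), and both calls held after scaling, at -1.08 and -0.94.

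Insig1, itself an SREBP target whose protein retains SCAP, was the regulator that stood highest in LPS+CPZ. Its levels were 18.3, 12.1 and 17.2 FPKM with LPS alone, 9.63, 8.85 and 11.8 with EtOH added and 29.4, 33.1 and 35.2 with CPZ added. The LPS+CPZ libraries lay above all others, and their mean was 2.05 times that of LPS and 3.22 times that of LPS+EtOH. The log2 change was 1.01 against LPS (SE 0.16, limma adjusted p = 0.000316) and 1.60 against LPS+EtOH (1.24e-05), and after scaling 1.30 and 0.88. The lower level in LPS+EtOH than in LPS, a log2 change of -0.59 (limma adjusted p = 0.0061), turned to 0.42 after scaling (0.0403). Insig2, the second retention protein, averaged 3.37 ± 0.145 FPKM with LPS alone, 1.42 ± 0.0556 with EtOH added and 3.66 ± 0.42 with CPZ added (SD, n = 3). It was lower in LPS+EtOH than in LPS by -0.85 (limma adjusted p = 2.08e-05), which was lost after scaling at -0.11, and in LPS+CPZ its change of 0.09 did not pass, whereas after scaling it was higher at 0.32.

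The sequences just before the start sites of Insig1, Mvd, Hmgcs1 and Fasn are printed because these genes stood apart in different ways: Insig1 was higher in LPS+CPZ and lower in LPS+EtOH on the deposited scale, Mvd was higher in both treated groups, Hmgcs1 passed in neither and Fasn was lower in both. Each run holds the 250 bases before the RefSeq start on GRCm38.p6, read 5′ to 3′ on the strand of the gene. They lie at chr5:28071162-28071411 on the plus strand, chr8:122443423-122443672 on the minus strand, chr13:119690101-119690350 on the plus strand and chr11:120824548-120824797 on the minus strand. Capitals mark matches on either strand to TCACNCCAC, a sterol regulatory element-like word, CCAAT, the NF-Y box, GGGCGG, the GC box bound by SP factors, or CACGTG, the E-box.
Insig1: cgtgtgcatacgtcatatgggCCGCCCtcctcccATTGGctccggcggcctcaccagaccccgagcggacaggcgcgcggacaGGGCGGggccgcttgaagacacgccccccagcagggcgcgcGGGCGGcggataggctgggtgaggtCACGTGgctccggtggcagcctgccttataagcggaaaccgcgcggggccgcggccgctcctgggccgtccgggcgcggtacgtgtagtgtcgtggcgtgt
Mvd: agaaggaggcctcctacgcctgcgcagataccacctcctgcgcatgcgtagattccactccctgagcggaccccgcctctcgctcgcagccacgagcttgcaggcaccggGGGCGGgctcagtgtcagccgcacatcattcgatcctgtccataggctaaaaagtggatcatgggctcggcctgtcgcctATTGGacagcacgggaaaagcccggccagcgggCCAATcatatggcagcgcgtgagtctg
Hmgcs1: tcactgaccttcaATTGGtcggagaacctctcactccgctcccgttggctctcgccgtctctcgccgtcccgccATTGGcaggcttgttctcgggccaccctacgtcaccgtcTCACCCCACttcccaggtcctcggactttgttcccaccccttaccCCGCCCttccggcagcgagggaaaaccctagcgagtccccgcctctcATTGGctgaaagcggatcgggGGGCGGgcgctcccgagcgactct
Fasn: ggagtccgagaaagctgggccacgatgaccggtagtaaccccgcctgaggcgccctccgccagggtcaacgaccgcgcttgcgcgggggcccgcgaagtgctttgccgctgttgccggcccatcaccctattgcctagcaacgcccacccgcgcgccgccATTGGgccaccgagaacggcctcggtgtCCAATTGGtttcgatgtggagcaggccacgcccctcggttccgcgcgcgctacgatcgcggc

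Hmgcs1 carried the sterol element-like word 137 bases before its start, with CCAAT matches at 237, 176 and 45 bases and GC boxes at 92 and 24. Mvd had CCAAT at 60 and 27 bases and a GC box at 140, Insig1 had CCAAT at 216, GC boxes at 229, 167 and 126 and an E-box at 101, and Fasn had CCAAT at 90, 62 and 59, the last 2 on opposite strands and overlapping. Matches to different motifs did not overlap in any of the windows searched. Of the 33 genes, 26 had a promoter entry, some with more than 1 start. TCACNCCAC was found in 1 of the 26 (3.85%), against 1.22% of 27025 genes with entries. CCAAT was found in 20 (76.9%, against 37.5%), GGGCGG in 21 (80.8%, against 35.4%) and CACGTG in 6 (23.1%, against 6.86%). Among the 7781 tested genes with entries the shares were 1.22% for TCACNCCAC, 39.9% for CCAAT, 63.5% for GGGCGG and 10.4% for CACGTG. A match is a description of these letters and not a binding site, and the absence of a match says nothing about a factor.

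In the mevalonate branch 6 of the 7 genes were tested, of which 1 was higher and 2 lower in LPS+EtOH than in LPS, and 2 higher and 1 lower in LPS+CPZ. Among all tested genes 19.0% were higher and 64.6% lower in the first comparison, and 20.7% and 48.4% in the second. Acat2, which joins acetyl-CoA units, and Hmgcs1, which makes the HMG-CoA from which mevalonate is formed, did not pass the threshold in any of the 3 comparisons. Hmgcs1 measured 23.8, 15.3 and 19.9 FPKM with LPS alone, 21.4, 17.9 and 27.4 with EtOH added and 25.4, 25.1 and 23.0 with CPZ added. The groups overlapped, and the log2 changes were 0.17 and 0.32 against LPS (limma adjusted p = 0.389 and 0.133). After scaling both were higher than in LPS, at 1.22 and 0.62. Acat2 averaged 2.28 ± 0.715, 1.80 ± 0.214 and 1.71 ± 0.208 FPKM (SD, n = 3) in LPS, LPS+EtOH and LPS+CPZ, and after scaling it was higher in LPS+EtOH than in LPS, at 0.53. It shares 445 bases of 98.7% identity, on the opposite strand, with Tcp1, which averaged 37.1, 5.45 and 20.9 FPKM, and is 97.7% identical to Acat3 over 1477 bases, so its level is uncertain.

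Of the kinases that phosphorylate mevalonate, Mvk was under 1 FPKM in every library, at 0.407 to 0.608 with LPS alone, 0.0616 to 0.252 with EtOH added and 0.658 to 0.749 with CPZ added. Pmvk, which adds the next phosphate, measured 5.31, 3.23 and 3.91 FPKM with LPS alone, 3.93, 4.79 and 4.18 with EtOH added and 5.42, 7.26 and 7.93 with CPZ added. The LPS+CPZ libraries lay above all others, by a log2 change of 0.62 against LPS (limma adjusted p = 0.00839). The change of 0.06 in LPS+EtOH did not pass (0.761), and after scaling it was higher at 0.95. With the globin genes left out the change in LPS+CPZ was 0.34 and no longer passed (limma adjusted p = 0.118).

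Mvd, the decarboxylase that makes isopentenyl diphosphate, showed the largest rise among the tested genes of the list in both comparisons with LPS. It measured 11.4, 10.3 and 9.57 FPKM with LPS alone, 45.8, 53.6 and 40.6 with EtOH added and 30.4, 34.5 and 26.4 with CPZ added. The groups did not overlap, and the means were 4.49 and 2.93 times that of LPS. The log2 change was 2.06 for LPS+EtOH (SE 0.14, limma adjusted p = 2.84e-07) and 1.46 for LPS+CPZ (SE 0.14, limma adjusted p = 8.79e-06), rising to 3.10 and 1.74 after scaling. The order of the groups, with LPS+EtOH above LPS+CPZ above LPS, was also that of Cyba, a subunit of the phagocyte NADPH oxidase, which lies 671 bases away on the same strand and was more abundant, at 155 ± 14.6, 505 ± 25.4 and 294 ± 42.9 FPKM in LPS, LPS+EtOH and LPS+CPZ (SD, n = 3). Mvd and Cyba share no exon bases in the GENCODE M21 annotation, and the part of Cyba in the level of Mvd was not tested.

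The enzymes that follow went the other way in LPS+EtOH. Idi1, which isomerizes isopentenyl diphosphate, measured 7.89, 6.25 and 9.51 FPKM with LPS alone, 1.86, 1.57 and 2.45 with EtOH added and 5.37, 6.12 and 6.21 with CPZ added. LPS+EtOH lay below all others, by a log2 change of -1.58 from LPS (limma adjusted p = 4e-06), while the change of -0.35 in LPS+CPZ did not pass (0.0712). A processed pseudogene, Gm13502, is identical to Idi1 over 684 bases and averaged 8.02, 1.45 and 4.71 FPKM in the same order, so reads may be split between them. Fdps, which builds farnesyl diphosphate, averaged 3.03 ± 1.32 FPKM with LPS alone, 0.868 ± 0.139 with EtOH added and 1.37 ± 0.0501 with CPZ added (SD, n = 3), lower in both, by -1.07 (limma adjusted p = 0.000279, lost after scaling at -0.42) and -0.72 (0.00546).

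Of the 12 sterol genes 9 were tested, of which 1 was higher and 6 lower in LPS+EtOH than in LPS, and 3 higher and 4 lower in LPS+CPZ. The shares lower, 66.7% and 44.4%, are near those of all tested genes, 64.6% and 48.4%. Both include Hsd17b7, which passed the filter through LPS alone. At the entry to this branch, Fdft1, squalene synthase, measured 4.6, 2.14 and 3.04 FPKM with LPS alone, 6.17, 7.1 and 7.49 with EtOH added and 7.95, 6.93 and 6.9 with CPZ added. Every treated library was above every LPS library, by log2 changes of 0.93 (limma adjusted p = 0.000759) and 0.99 (0.000793). Fdft1 shares 774 exon bases with Ctsb, a lysosomal protease gene on the opposite strand that was far more abundant, at 129 ± 23.2 FPKM with LPS alone, 454 ± 5.00 with EtOH added and 618 ± 69.1 with CPZ added (SD, n = 3). The libraries were strand-specific per the labels, but whether counting used the strand is not given in the sources used here, so the level of Fdft1 is uncertain and the part of Ctsb in it was not tested.

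**Figure D3:**
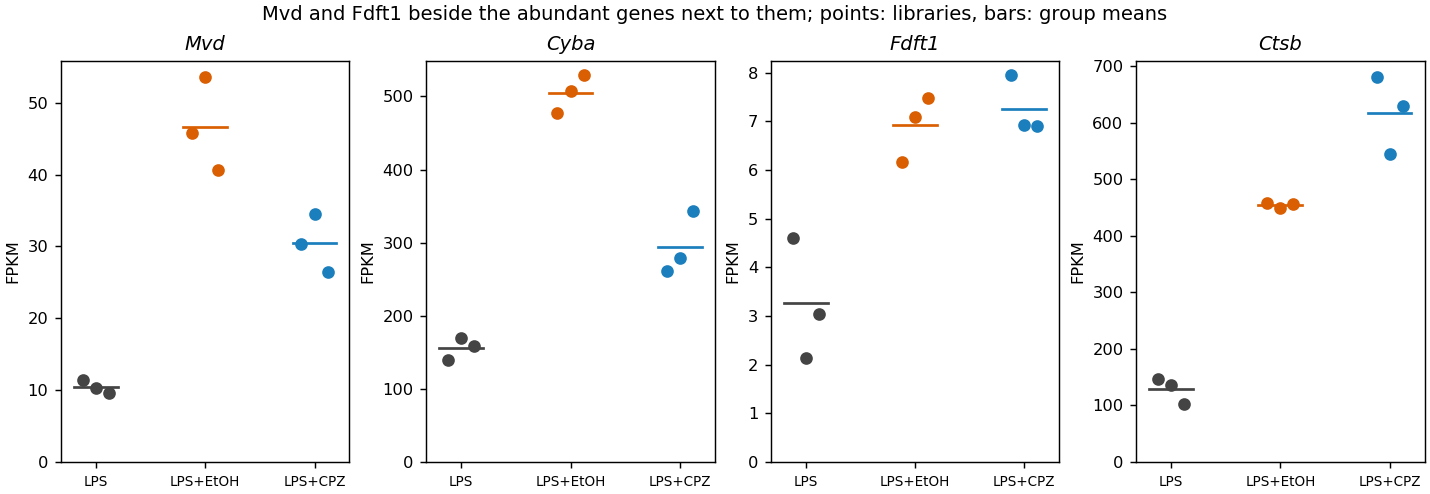
FPKM of Mvd and Fdft1, the 2 genes of the list higher in both treated groups, each beside the abundant gene next to it, Cyba and Ctsb, which were chosen after their values were seen, with 1 point per library, the group mean as a bar and an axis from 0 in each panel. Cyba orders the groups as Mvd does, and Ctsb is lowest in LPS as Fdft1 is.

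Sqle, squalene epoxidase and a rate-controlling step, measured 4.64, 2.15 and 3.27 FPKM with LPS alone, 1.12, 1.09 and 1.25 with EtOH added and 2.5, 2.29 and 2.69 with CPZ added. It was lower in LPS+EtOH than in LPS by -0.98 (limma adjusted p = 0.000421), lost after scaling at -0.27, and its change of -0.28 in LPS+CPZ did not pass (0.189). Cyp51, the lanosterol demethylase, was lower in both, from 14.7, 8.98 and 11.8 FPKM in LPS to 2.58, 1.87 and 3.36 with EtOH added and 5.71, 6.11 and 7.22 with CPZ added. The log2 changes were -1.83 (limma adjusted p = 5.87e-06) and -0.79 (0.0042), the second lost after scaling at -0.49. Cyp51 shares 166 exon bases with Akap9 on the opposite strand, which averaged 2.86, 0.303 and 1.7 FPKM in LPS, LPS+EtOH and LPS+CPZ. The part of Akap9 in the level of Cyp51 was not tested.

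Msmo1 and Sc5d, which encode a sterol methyl oxidase and the C5 desaturase late in the pathway, were higher in LPS+CPZ than in either other group. Msmo1 measured 7.21, 6.61 and 6.81 FPKM with LPS alone, 6.79, 6.52 and 10.7 with EtOH added and 19.8, 12.1 and 13.2 with CPZ added. Sc5d measured 7.13, 4.97 and 7.3 FPKM with LPS alone, 6.99, 6.1 and 8.08 with EtOH added and 16.3, 13.9 and 13.2 with CPZ added. For both genes the LPS+CPZ libraries lay above all others and the other groups overlapped. Against LPS the log2 change in LPS+CPZ was 1.00 for Msmo1 (limma adjusted p = 0.00134) and 1.06 for Sc5d (0.000157), and neither passed in LPS+EtOH, at 0.16 and 0.12 (0.469 and 0.496). After scaling both were higher in LPS+EtOH as well, at 1.13 and 1.07, and the differences between the treated groups, 0.83 and 0.95, fell to 0.13 and 0.24 and no longer passed.

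The remaining tested sterol genes were lower in LPS+EtOH than in LPS. Stard4, which carries cholesterol between membranes, measured 4.81, 3.06 and 4.83 FPKM with LPS alone, 0.379, 0.276 and 0.413 with EtOH added and 1.19, 1.06 and 1.56 with CPZ added. The groups did not overlap, and the log2 change was -1.93 (limma adjusted p = 7.42e-07) and -1.19 (6.32e-05). Ebp, a sterol isomerase, averaged 3.91 ± 0.372, 0.657 ± 0.154 and 2.59 ± 0.653 FPKM (SD, n = 3), with log2 changes of -1.57 (limma adjusted p = 2.17e-06) and -0.46 (0.0151). The second was lost after scaling at -0.21, and without LPS replicate 3 or LPS+CPZ replicate 1, when the adjusted p was 0.0515 and 0.0615. Nsdhl, which takes part in removing the methyl groups at C4, averaged 1.92 ± 0.382, 0.355 ± 0.0705 and 1.61 ± 0.0912 FPKM, lower in LPS+EtOH by -1.10 (limma adjusted p = 4.43e-06) and not past the threshold in LPS+CPZ at -0.16 (0.235). Hsd17b7, the matching ketoreductase, reached 1 FPKM in the LPS libraries only, at 1.73 to 2.99, and was at 0.0908 to 0.417 in LPS+EtOH and 0.465 to 0.594 in LPS+CPZ. It entered the test only through the group where it was high, so its log2 changes of -1.40 (limma adjusted p = 5.5e-06) and -1.09 (8.51e-05) are given as a description. Lss, the cyclase that makes lanosterol, averaged 0.836, 0.0932 and 0.267 FPKM, Dhcr7, the final reductase, 0.993, 0.243 and 0.541, and Tm7sf2, a sterol reductase that shares 532 exon bases with Vps51, 0.282, 0.135 and 0.256. For Lss and Dhcr7 every treated library lay below every LPS library, with LPS+EtOH below LPS+CPZ.

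All 6 fatty acid genes that were tested were lower than with LPS alone in both treated groups, against 64.6% and 48.4% of all tested genes, with a median log2 change of -2.15 in LPS+EtOH and -1.19 in LPS+CPZ. Acaca passed the filter only through its LPS libraries. After scaling 6 and 5 of the 6 were still called lower, beside 42.1% and 34.1% of all tested genes on that scale. Scd2 was lost in LPS+CPZ at -0.35, and the medians were -1.18 and -0.90. Scd1, the stearoyl-CoA desaturase that makes oleate, measured 62.4, 91.6 and 79.9 FPKM with LPS alone, 3.02, 2.33 and 1.76 with EtOH added and 3.95, 4.63 and 3.43 with CPZ added. It was the most abundant of the 33 genes in LPS, and its LPS libraries stood far above both treated groups, whose ranges lay next to each other without overlap. The LPS mean was 32.9 times that of LPS+EtOH and 19.5 times that of LPS+CPZ, with log2 changes of -4.55 (SE 0.18, limma adjusted p = 2.95e-08) and -3.97 (SE 0.18, limma adjusted p = 9.7e-08). After scaling both were -3.62.

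Fasn, the multi-domain enzyme that builds palmitate, measured 11.8, 17.1 and 13.4 FPKM with LPS alone, 0.842, 0.875 and 0.591 with EtOH added and 1.45, 2.2 and 1.65 with CPZ added. No groups overlapped, and the LPS mean was 18.3 and 7.98 times that of LPS+EtOH and LPS+CPZ. The log2 change was -3.08 (SE 0.16, limma adjusted p = 6.49e-08) and -2.44 (SE 0.16, limma adjusted p = 6.07e-07), and after scaling -2.34 and -2.10. Of the markers of adipocytes, which also express Fasn and Scd1, Adipoq was at most 0.061 FPKM and Lep at 0 in all 9 libraries. Markers of other cell types moved with the groups, and the part of those cells in the levels of Fasn and Scd1 was not tested.

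Upstream of Fasn, Acly, which makes cytosolic acetyl-CoA, measured 29.9, 27.9 and 27.1 FPKM with LPS alone, 6.57, 4.14 and 5.89 with EtOH added and 14.6, 15.2 and 15.2 with CPZ added. The groups did not overlap, and LPS+CPZ lay between the others. The log2 change was -2.18 in LPS+EtOH (limma adjusted p = 2.2e-07) and -0.87 in LPS+CPZ (0.000306). Acaca, which makes malonyl-CoA, measured 3.12, 2.94 and 2.83 FPKM with LPS alone, 0.31, 0.25 and 0.232 with EtOH added and 0.898, 1.03 and 0.86 with CPZ added, again in that order without overlap. Its log2 change was -1.65 (limma adjusted p = 9.91e-08) and -1.04 (4.93e-06), though without its LPS libraries it would not have passed the filter. A processed pseudogene of Acaca, Gm5182, 99.2% identical over 6118 bases, averaged 0.823, 0.0616 and 0.217 FPKM.

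Elovl5, which lengthens polyunsaturated fatty acids, measured 16.8, 20.9 and 22.5 FPKM with LPS alone, 3.85, 3.99 and 3.56 with EtOH added and 6.38, 8.61 and 6.9 with CPZ added. Its groups did not overlap, and the log2 change was -2.13 (limma adjusted p = 2.36e-07) and -1.35 (1.51e-05). Scd2, a second desaturase 95.5% identical to Scd1 over 623 bases, measured 1.99, 3.29 and 4.18 FPKM with LPS alone, 0.872, 0.481 and 0.694 with EtOH added and 1.45, 2.69 and 1.1 with CPZ added. LPS and LPS+CPZ overlapped. It was lower in LPS+EtOH by -1.27 (limma adjusted p = 0.000424), and the change of -0.60 in LPS+CPZ (0.0416) was lost after scaling, with a pseudocount of 0.1, with no filter, with those groups alone, and without LPS replicate 2 or 3, LPS+EtOH replicate 2 or 3, or LPS+CPZ replicate 1 or 3, when the adjusted p ranged from 0.0524 to 0.164. The untested genes were low everywhere. Elovl6, the elongase of saturated chains, was at 0.714 to 1.28 FPKM in LPS and at most 0.163 in the treated libraries. The desaturase gene Fads1 averaged 0.673, 0.14 and 0.345 FPKM in LPS, LPS+EtOH and LPS+CPZ, and Fads2 did not exceed 0.354 FPKM in any library.

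Sums over the branches were also taken in each library. The 9 fatty acid genes summed to 129, 165 and 151 FPKM with LPS alone, 15.9, 12.2 and 12.9 with EtOH added and 29.3, 34.8 and 29.5 with CPZ added. The 19 mevalonate and sterol genes summed to 110, 76.8 and 95.7, to 102, 105 and 110, and to 129, 125 and 118. The treated libraries owed much of the latter sum to Mvd and Fdft1. Without them it was 94.3, 64.4 and 83.0 with LPS alone, 50.2, 44.6 and 61.9 with EtOH added and 90.7, 83.7 and 85.2 with CPZ added. Every LPS+EtOH library then lay below every LPS library. Mvd and Fdft1 were the 2 genes called higher in LPS+EtOH and were left out with their values known. The lower sum in LPS+EtOH thus follows in part from that choice and is a description only. These sums depend on the scaling. After median-ratio scaling the fatty acid sum was 97.4 to 115 with LPS alone, 19.5 to 23.3 with EtOH added and 26.8 to 29.5 with CPZ added, still lower in both treated groups. The mevalonate and sterol sum was then 53.7 to 83.5, 150 to 173 and 106 to 122 in the same order, and without Mvd and Fdft1 45.1 to 71.4, 73.2 to 94.1 and 70.9 to 85.5, so that with EtOH added the order relative to LPS turned. The ratio of the branches within a library does not depend on the scaling. The fatty acid sum was 1.17, 2.15 and 1.58 times the mevalonate and sterol sum with LPS alone, 0.155, 0.116 and 0.117 times with EtOH added and 0.227, 0.278 and 0.249 times with CPZ added, with no overlap between any groups. Without Mvd and Fdft1 the ratio was 1.36, 2.56 and 1.82 with LPS alone, 0.316, 0.273 and 0.208 with EtOH added and 0.323, 0.416 and 0.346 with CPZ added. Other genes of the list, such as Sqle beside Washc5 and Scap beside Ptpn23, also have a more abundant neighbour. LPS still stood apart, while the highest LPS+EtOH library, at 0.316, lay just under the lowest LPS+CPZ library, at 0.323. The ratio is a description with no test, and Scd1 alone made up 62.4, 91.6 and 79.9 FPKM of the LPS sums.

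**Figure D4:**
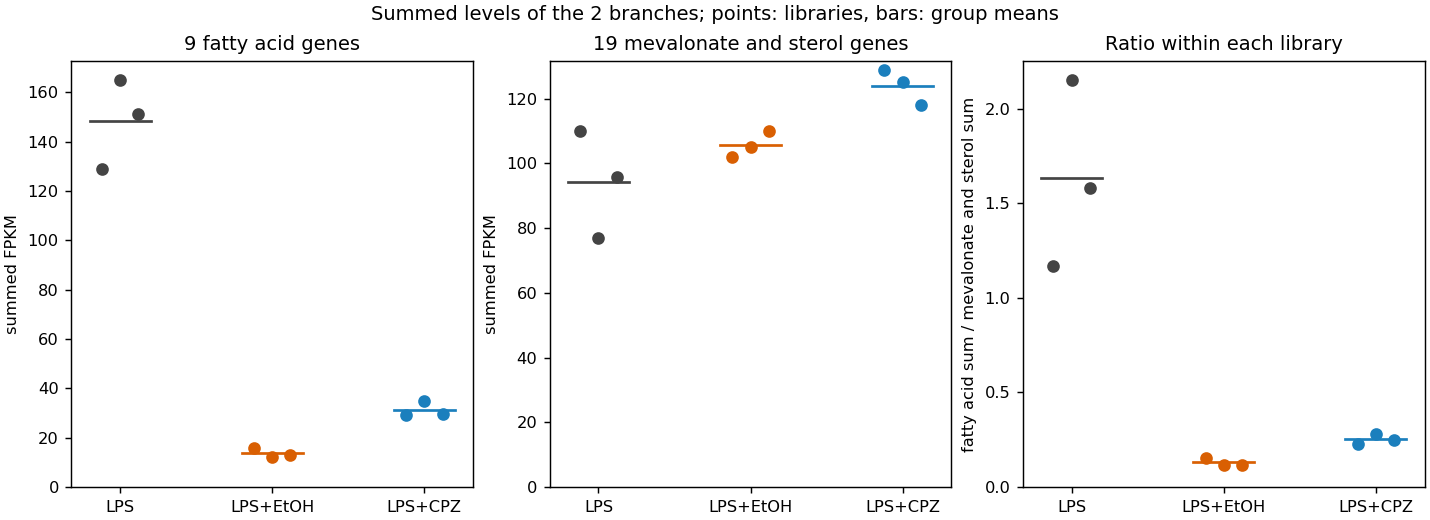
Summed FPKM of the 9 fatty acid genes, of the 19 mevalonate and sterol genes, and their ratio in each library, with points for libraries, bars for group means and axes from 0. The fatty acid sum drops from at least 129 in LPS to at most 34.8 in the treated libraries, and the mevalonate and sterol sum lies between 76.8 and 129 on this scale. Without Mvd and Fdft1, left out with their rise in LPS+EtOH known, every LPS+EtOH library is below every LPS library in the latter sum. That order turns after median-ratio scaling, with 73.2 to 94.1 in LPS+EtOH and 45.1 to 71.4 in LPS.

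A ratio of single genes within a library was also taken, with the rise of Mvd already known. Mvd was 0.477, 0.672 and 0.48 times Hmgcs1 with LPS alone, 2.14, 2.99 and 1.48 times with EtOH added and 1.2, 1.38 and 1.15 times with CPZ added, without overlap. Both genes belong to 1 branch and were measured per length in the same library. This ratio restates the change of Mvd given above, and the part of Cyba in it was not tested. Among the regulators, Srebf2 was above Insig1 in every LPS and LPS+EtOH library and below it in every LPS+CPZ library.

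Directly compared, LPS+CPZ was higher than LPS+EtOH for Insig1 at 1.60, Acly at 1.31 (limma adjusted p = 1.69e-05), Idi1 at 1.23 (5.31e-05), Ebp at 1.10 (6.05e-05), Srebf1 at 0.96 (1.69e-05), Nsdhl at 0.95 (3.03e-05), Insig2 at 0.94 (2.17e-05), Stard4 at 0.74 (0.00127) and Acaca at 0.61 (0.000147), and these 9 were also the ones higher after scaling. The other 10 of the 19 higher genes no longer passed after scaling. Besides Msmo1 and Sc5d, Cyp51 went from 1.04 to 0.44, Elovl5 from 0.78 to 0.13, Sqle from 0.70 to 0.22, Scd2 from 0.67 to 0.30, Fasn from 0.64 to 0.24, Scap from 0.60 to 0.13 and Pmvk from 0.56 to -0.10. Scd1 differed by 0.58 (limma adjusted p = 0.0124) on the deposited scale and by -0.00 after scaling (0.999), and its call was lost without LPS+EtOH replicate 3 (0.0521). The call of Pmvk (0.0124) was lost without LPS+CPZ replicate 3 (0.0514), and that of Scd2 (0.0228) without LPS+EtOH replicate 2 (0.0804) or LPS+CPZ replicate 2 (0.0902). Mvd was the 1 gene lower in LPS+CPZ than in LPS+EtOH, by a log2 change of -0.60 (limma adjusted p = 0.00273), and by -1.36 after scaling. After scaling Srebf2 at -0.88, Fdft1 at -0.63, Hmgcs1 at -0.60 and Acat2 at -0.57 were lower as well.

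**Figure D5:**
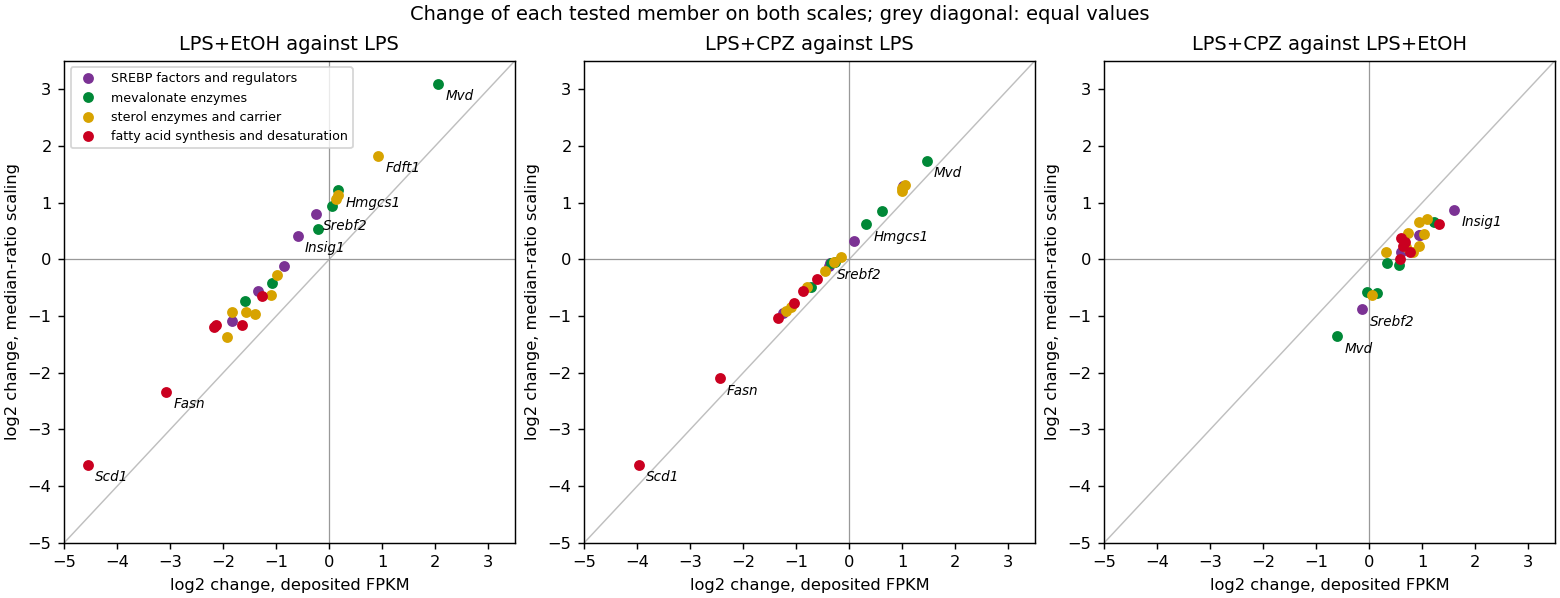
Log2 change of the 26 tested genes on the deposited scale (horizontal) and after median-ratio scaling (vertical), coloured by role, with a grey diagonal where both are equal. Points lie above the diagonal in the comparisons with LPS and below it between the treated groups. Srebf2, Insig1 and Acat2 cross 0 in the first panel, and Scd1, Fasn and Mvd stay far from 0 in the comparisons with LPS.

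Other genes of the pathways, from a list of 41 of which 31 were tested, split as follows. In LPS+EtOH against LPS 4 were higher and 22 lower, with a median log2 change of -0.87, beside 19.0% and 64.6% of all tested genes, and 12 were higher and 11 lower after scaling. The falls with the smallest adjusted p were in Mbtps1, the protease that first cuts SREBPs, from 7.98 ± 0.823 FPKM to 0.627 ± 0.0571 (SD, n = 3; log2 change -2.46, limma adjusted p = 5.08e-08), and Aacs, which activates acetoacetate for lipid synthesis, from 7.40 ± 0.486 to 0.72 ± 0.258 (-2.30, limma adjusted p = 1.06e-07). Acsl1, a long-chain acyl-CoA synthetase, and Hacd4, a dehydratase of chain elongation, were higher, by 0.97 (limma adjusted p = 0.00289) and 0.67 (0.00408). In LPS+CPZ against LPS 4 were higher and 14 lower, with a median of -0.34, beside 20.7% and 48.4% of all tested genes. By adjusted p, Aacs at -1.22 (limma adjusted p = 1.82e-05) and Lbr, a sterol reductase of the nuclear membrane, at -1.41 (3.13e-05) led the falls, and Hacd4 at 1.35 (6.04e-05) and Acss2, which activates acetate, at 1.23 (6.41e-05) led the rises. Acss2 measured 1.25, 1.04 and 0.997 FPKM with LPS alone, 0.6, 0.36 and 0.751 with EtOH added and 5.24, 3.15 and 3.6 with CPZ added, so that LPS+CPZ lay above all others. Without its LPS+CPZ libraries it would not have passed the filter. Between the treated groups 20 were higher in LPS+CPZ and 2 lower, with a median of 0.62, beside 61.4% and 15.2% of all tested genes, and 11 were higher and 11 lower after scaling. These shares of the list are near the background. Mbtps1 at 1.49 (limma adjusted p = 2.11e-06) and Slc25a1, the mitochondrial citrate carrier, at 1.62 (4.45e-06) were higher, and the acyl-CoA synthetase genes Acsl5 at -1.36 (5.88e-05) and Acsl1 at -0.95 (0.00404) were lower.

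The spread within LPS was not even across the branches. LPS replicate 2 was lowest in 9 of the 12 sterol genes and 5 of the 7 mevalonate genes, and LPS replicate 1 highest in 6 and 5 of them, whereas Scd1 and Fasn were highest in replicate 2. Fdft1 and Sqle varied by 2.15 times between LPS libraries, against 1.04 times for Srebf1. The globin share was also lowest in LPS replicate 2, at 11.5%, and its part in this order was not tested.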

How the data were processed

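Bulk RNA-seq of 9 libraries was used, 3 per group, grouped by the labels' treatment, and every value column was matched to a sample by name. The deposited values are FPKM per gene. Per the submitters' processing notes, StringTie, STAR and FastQC (version 0.11.2) were used with the build hg38, although the gene IDs are mouse IDs. Read counts were not used here, so no counting error is given and FPKM carries the composition of each library.

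The test covered the 11721 genes that reached 1 FPKM in 3 or more libraries. Log2(FPKM + 1) was fitted over all 9 libraries with limma 3.58.1 (R 4.3.3), with a term for group, a trended eBayes step, 6 residual degrees of freedom and Benjamini-Hochberg adjustment. Tests were two-sided, and a call is an adjusted p under 0.05. The script was tested on simulated data. The 33 genes and the other lists were chosen with earlier results of these data known. All 33 are named, and of the other 41 pathway genes up to 2 per direction and comparison with the smallest adjusted p.

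Alternatives were pseudocounts of 0.1 and 5, no filter and a filter of 5 FPKM, TPM, median-ratio scaling, FPKM without the 4 globin genes, eBayes without trend, a fit to the compared groups alone, a block for the replicate number, and leaving out each library. Exon overlaps, neighbours and copies of at least 300 bases with 95% identity came from GENCODE M21, and promoters from RefSeq on GRCm38.p6. Tables were handled with pandas 2.3.3 and numpy 2.4.6 under Python 3.11.15, and plots drawn with matplotlib 3.10.9.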

Additional observations from a re-analysis of the deposited data

How the results depend on the processing

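Of the calls, 2 higher and 14 of 18 lower in LPS+EtOH against LPS, 5 of 6 higher and 9 of 14 lower in LPS+CPZ against LPS, and 9 of 19 higher and 1 of 1 lower between the treated groups held under each of the 19 alternatives that tested them. The share of calls that held among all tested genes was not taken, so these counts do not set the list apart. Median-ratio scaling gave 9 of the 26 tested genes higher in LPS+EtOH against LPS, 9 lower in LPS+CPZ against LPS, and 9 higher and 5 lower between the treated groups. For the other pathway genes it gave 12 higher and 11 lower, 9 lower, and 11 higher and 11 lower in the same order, and for all genes 4435 higher and 4936 lower in LPS+EtOH against LPS and 4171 higher and 3687 lower between the treated groups. The filter of 5 FPKM, which tests fewer genes, gave 9 lower, 8 lower and 12 higher of the 33, 2 higher and 14 lower, 1 higher and 9 lower, and 10 higher of the others, and 3770 lower, 3096 lower and 3764 higher of all genes. The shares of the genes tested under this filter were not taken, so these counts do not set the list apart. Without globin genes 23 other pathway genes were lower in LPS+CPZ than in LPS, against 14 of the 31 tested with globin genes kept. The count of lower genes among all tested genes rose as well, so this rise does not set the list apart.

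Directions turned as follows, and the cause was not tested. In LPS+EtOH against LPS, scaling gave Srebf2 0.81, Insig1 0.42, Acat2 0.53 and Acss2 0.05. Leaving out globin, with the rest rescaled, gave Hmgcs1 -0.24, Pmvk -0.32, Msmo1 -0.23 and Sc5d -0.27, and TPM gave Pmvk -0.03. Leaving out 1 library at a time, Pmvk ranged from -0.07 to 0.21, Sc5d from -0.04 to 0.20 and Msmo1 from -0.04 to 0.28. In LPS+CPZ against LPS, leaving out globin gave Insig2 -0.24, Hmgcs1 -0.04 and Acsl1 -0.33, TPM gave Acsl1 -0.04, and scaling gave Nsdhl 0.04 and Slc25a1 0.27. Leaving out libraries, Acsl1 ranged from -0.06 to 0.13 and Slc25a1 from -0.14 to 0.12. Between the treated groups, scaling gave Hmgcs1 -0.60, Pmvk -0.10, Fdps -0.06, Fdft1 -0.63, Scd1 -0.00 and Lbr -0.26. Leaving out libraries, Acat2 ranged from -0.11 to 0.01 and Fdft1 from -0.01 to 0.11. None of these comparisons that turned on leaving out a library had passed the threshold with all 9.

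Leaving out 1 library at a time gave 2 higher and 17 to 18 lower of the 33 in LPS+EtOH against LPS, 6 to 7 and 10 to 14 in LPS+CPZ against LPS, and 18 to 20 and 1 between the treated groups. It gave 3 to 4 and 20 to 22, 3 to 4 and 12 to 15, and 16 to 21 and 2 to 3 of the others, and 1938 to 2208 and 6662 to 7546, 2116 to 2401 and 4514 to 5648, and 6444 to 6904 and 1524 to 1797 of all genes.

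Same-numbered libraries of different groups correlated by -0.01 to 0.26 in their deviations, above 0.1 in 3 of 9 pairs, and 10 of 18 correlated best with their own number. As not every pair exceeded 0.1 and the labels name no shared source, the numbers were not taken to pair the samples, though a weak pairing is possible. With the replicate number as a block 2 of the 33 genes were higher and 18 lower in LPS+EtOH against LPS, 6 higher and 15 lower in LPS+CPZ against LPS, and 20 higher and 1 lower between the treated groups.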

Other observations

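The first markers of each cell type list stood as follows, as group means in FPKM in the order LPS, LPS+EtOH and LPS+CPZ. The neutrophil genes Ly6g and S100a8 averaged 16.9, 156 and 274, and 995, 9141 and 2752. The other neutrophil genes did not all follow them with CPZ, as S100a9 averaged 3369, 33420 and 3208 and Cxcr2 11.3, 38.8 and 3.81. The B cell gene Ms4a1 averaged 54.0, 1.22 and 7.65. The T cell genes Cd3e and Cd3d averaged 3.28, 0.0221 and 0.986, and 3.92, 0.394 and 1.41. Of the alpha globins, Hba-a1 and Hba-a2 averaged 17913, 167 and 63.3, and 15462, 165 and 62.8. The mast cell genes Cpa3 and Cma1 averaged 10.1, 3.68 and 1.89, and 30.3, 18.2 and 7.68. The adipocyte genes Adipoq and Plin1 and the mesothelial genes Msln and Upk3b were each under 1 FPKM in every library. Col1a1 of the mesothelial and fibroblast list averaged 0.127, 1.95 and 2.14.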
